A study of Mus musculus with 12 samples.

Results

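The 8 genes described here encode an alpha-tubulin (Tuba1a), 4 beta-tubulins (Tubb3, Tubb2a, Tubb2b and Tubb6) and 3 stathmins (Stmn1, Stmn2 and Stmn4). They are 8 of 25750 genes to which the transcripts of the study were matched, and all 8 were among the 13079 genes with a level of at least 1 TPM (a level per transcript length, scaled so that each library sums to 1000000) in at least 3 libraries. The list was chosen for the lower levels of Stmn4 and Tubb3 after knockdown in these same libraries. Their knockdown differences are therefore given as a description with no test, and so are the day differences of both genes in siKctd10 cells, which use the libraries with the low values. The other 6 genes are given with p-values, adjusted over all 13079 genes.

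The study sequenced poly(A)-selected RNA of C2C12 cells, a mouse myoblast line that fuses into multinucleated myotubes when serum is lowered. Its 4 groups of 3 libraries were D2 cells with an siRNA against Kctd10 (siKctd10), D2 cells with a non-targeting siRNA (siControl), D0 cells with siKctd10 and D0 cells with siControl. D0 cells were subconfluent myoblasts in DMEM with 10% FBS, and D2 cells were differentiating myocytes that had been moved 24 h after the siRNA into DMEM with 2% horse serum. Every cell received an siRNA, so the series holds no untransfected group, and a single siRNA sequence against Kctd10 was used in a single cell line. The protocols name 48 h of siRNA without setting the days apart, so the siRNA time of D2 cells cannot be given. Whether the replicates were separate cultures is not stated, so a p-value here reflects variation among the libraries alone, which may be technical. D2 and D0 differ in medium as well as in stage, and these cannot be told apart.

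Microtubules are hollow polymers of alpha- and beta-tubulin dimers that grow and shrink at their ends. Mammals carry several genes for each tubulin, whose products differ mainly in the acidic tail at the carboxy terminus, where motors and associated proteins bind and most modifications are placed. Stathmins bind free tubulin dimers and favour shrinkage. During muscle differentiation the centrosomal microtubule array of the myoblast is replaced by arrays that run along the long axis of the cell and start at the nuclear envelope. Kctd10 is a substrate adaptor of cullin ubiquitin ligases.

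The coding sequences show how close the tubulin genes are to each other, which matters for how reads are divided among them. The starts of 7 coding sequences are given with the first 12 bases in capitals. In tubulins these encode the amino-terminal residues through which tubulin messages are recognised for autoregulation, and stathmins begin differently. These sequences were read from mm10 with GENCODE transcripts that have the introns of the transcript measured.

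Tuba1a: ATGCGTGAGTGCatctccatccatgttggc
Tubb3: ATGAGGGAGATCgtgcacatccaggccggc
Tubb2a: ATGCGCGAGATCgtgcacatccaggcgggc
Tubb2b: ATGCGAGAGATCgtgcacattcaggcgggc
Stmn1: ATGGCATCTTCTgatattcaggtgaaagag
Stmn2: ATGGCTAAAACAgcaatggcctacaaggaa
Stmn4: ATGACTCTTGCAgcctataaggagaagatg

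Tubb2a and Tubb2b shared 96.5% of aligned coding bases, with 47 of 1338 columns different. Tubb3 shared 83.4% with Tubb2a, 83.6% with Tubb2b and 85.9% with Tubb6. The stathmins were further apart, at 57.0% for Stmn1 and Stmn2, 56.9% for Stmn2 and Stmn4 and 47.4% for Stmn1 and Stmn4. The last 60 coding bases, which encode the acidic tail, are shown because they hold the near identity of the Tubb2 pair and the different tail of Tubb3. Capitals mark the 3 bases at which Tubb2a and Tubb2b differ.

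Tubb2a: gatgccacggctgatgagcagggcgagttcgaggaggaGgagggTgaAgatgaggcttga
Tubb2b: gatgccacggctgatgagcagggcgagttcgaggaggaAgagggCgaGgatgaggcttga
Tubb3: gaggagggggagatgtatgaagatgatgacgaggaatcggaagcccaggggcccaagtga

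Reads of Tubb2a and Tubb2b may therefore have been divided with error. Tubb2a also has a single-exon pseudogene, Tubb2a-ps2, which was listed at 171.0 to 192.1 TPM in D2 siKctd10 libraries, 225.0 to 274.8 TPM in D2 siControl libraries, 129.2 to 145.3 TPM in D0 siKctd10 libraries and 154.2 to 164.0 TPM in D0 siControl libraries. The levels of both Tubb2 genes are uncertain to that degree.

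The siRNA strands are shown because a guide strand can also act through its seed (bases 2 to 8, in capitals) on other messages.

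siKctd10 guide: uUAUCGUCagaauugcugg
siControl guide: uCAGAAAAcauguaaacca

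The siKctd10 sequence was found in full in a Kctd10 transcript and in none of the 8 genes. No 3′ UTR of the 8 genes held the site GACGATA, which pairs with the 7 seed bases of the siKctd10 guide and occurs in 1.08% of genes with a 3′ UTR, or the 6-base site ACGATA, which occurs in 4.61%. The 7-base site of the siControl guide, TTTTCTG, was in none of the 8 and in 28.7% of genes. Its 6-base form TTTCTG, in 58.3% of genes, had 2 matches in Tubb2b and 1 in Stmn4. These are letter matches in annotated transcripts, and repression through them was not tested.

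Kctd10 itself, the target, had 34.3, 26.8 and 35.1 TPM in D2 siKctd10 libraries, against 285.4, 275.9 and 289.0 TPM in D2 siControl libraries. At D0 it had 24.8, 24.5 and 20.0 TPM with siKctd10, against 271.7, 257.9 and 269.0 TPM with siControl. The libraries thus followed their labels, with Kctd10 at 11.3% of siControl at D2 and 8.66% at D0. Over the series, estimated depth was 12.51 to 18.08 per library in units of 1000000 read pairs. The 12 muscle differentiation genes fixed as markers all rose at D2 in both siRNA groups. The same marker genes summed to 3301.2 to 3931.3 TPM in D2 siKctd10 libraries, against 5385.9 to 5647.9 TPM in D2 siControl libraries. The 5 myoblast markers, Myod1, Myf5, Pax7, Cdh15 and Des (which is also in the muscle list), all passed the filter on low values. Adipocyte, leukocyte and endothelial markers summed to at most 19.8, 2.55 and 1.65 TPM in any library.

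Before the values, one property of the deposited estimates bears on all 8 genes. In transcripts with a mean coverage of at least 5, the share of exons listed at 0 coverage was 75.5 to 79.2% among exons of at most 100 bases and 62.4 to 67.6% among those over 100 and up to 200 bases. It was 14.8 to 16.0% among exons over 200 and up to 500 bases and 4.12 to 4.94% among exons over 500 bases. The cause was not tested. In the member transcripts examined the last exon was the longest, and it had the highest mean coverage in all 4 groups for Tuba1a, Tubb2a, Tubb2b, Tubb3, Stmn1 and Stmn2. For these genes the level therefore rested mostly on that exon. Levels of different genes are compared here on the TPM scale, which divides by the whole transcript length, and so carry this unevenness.

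**Figure D1:**
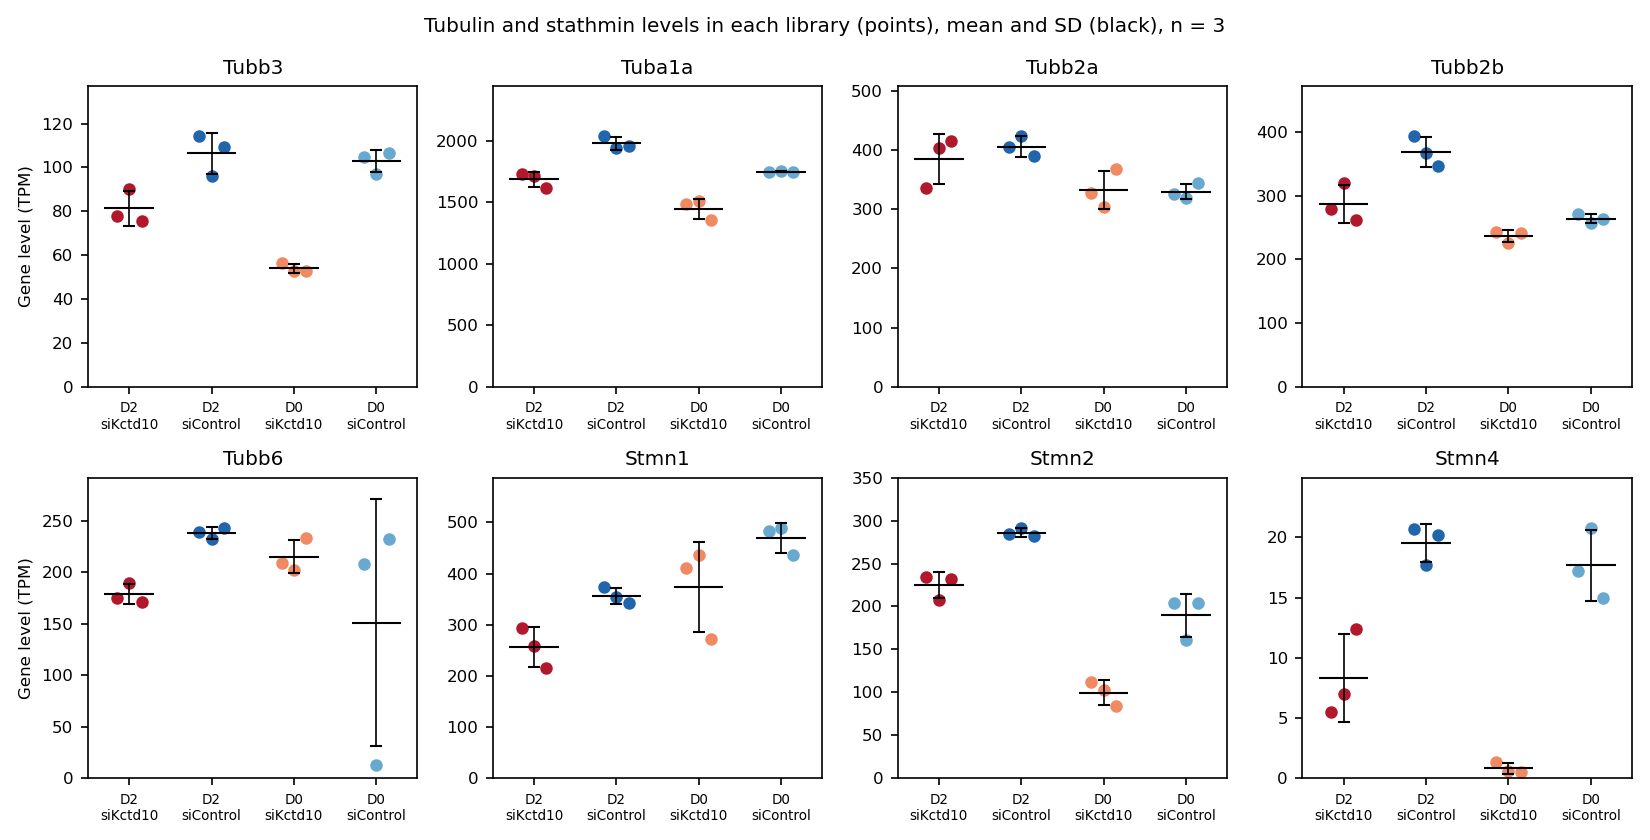
Level of each member in TPM (y axis, from 0) in each of the 12 libraries (points), with the mean and SD of the 3 libraries of each group (black). The siKctd10 points of Tubb3, Stmn4, Stmn2, Tuba1a and Tubb2b lie below the siControl points on each day, and a single D0 siControl library has 13.2 TPM of Tubb6.

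Tuba1a, an alpha-tubulin known mostly from developing neurons, lies at chr15:98949847-98953501 on the minus strand of mm10 and was the highest of the 8 genes in every group. It had 1730.6, 1714.1 and 1616.7 TPM in D2 siKctd10 libraries, against 2038.1, 1939.8 and 1959.0 TPM in D2 siControl libraries. In D0 siKctd10 libraries it had 1484.2, 1507.4 and 1354.9 TPM, against 1748.2, 1753.2 and 1749.0 TPM in D0 siControl libraries. Every siKctd10 library was below every siControl library of its day. The log2 fold change (of TPM + 1, as throughout) was -0.23 at D2 (SE 0.06, limma adjusted p = 0.046) and -0.27 at D0 (SE 0.06, limma adjusted p = 0.033). Both calls were lost in every one of the 6 fits that left out 1 library of the groups compared (limma adjusted p 0.081 to 0.14 at D2 and 0.058 to 0.11 at D0), with quantile normalization, and with only the groups compared. Differentiation went with slightly more Tuba1a, by 0.22 in siKctd10 cells (limma adjusted p = 0.011) and 0.18 in siControl cells (limma adjusted p = 0.031). After median-ratio scaling these differences were 0.09 and 0.08, with voom 0.12 and 0.07, and none of these passed. That in siControl cells also did not pass in any fit without 1 of its 6 libraries (limma adjusted p 0.057 to 0.094).

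Tubb3, the class III beta-tubulin used as a marker of neurons, is the first of the genes by which the list was chosen. It had 78.1, 90.3 and 75.6 TPM in D2 siKctd10 libraries, against 114.3, 96.2 and 109.3 TPM in D2 siControl libraries. In D0 siKctd10 libraries it had 56.4, 53.0 and 52.6 TPM, against 104.7, 97.1 and 106.8 TPM in D0 siControl libraries. The groups did not overlap on either day, and the gap was wider at D0. Tubb3 in siKctd10 cells was at 76.3% of siControl at D2 (log2 fold change -0.39, SE 0.09) and at 52.5% at D0 (-0.92, SE 0.09). Over the processing alternatives these values stayed between -0.48 and -0.34 at D2 and between -1.02 and -0.89 at D0. Within siKctd10 cells Tubb3 was 0.58 higher at D2 than at D0 (SE 0.09). Within siControl cells Tubb3 did not pass between the days, at 106.6 ± 9.32 TPM at D2 and 102.9 ± 5.1 TPM at D0 (SD, n = 3 each, log2 fold change 0.05, limma adjusted p = 0.74).

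Tubb3 has a single transcript in the deposited set, at chr8:123411564-123422010 on the plus strand of mm10, with 4 exons. Its exons 1 and 2, of 99 and 109 bases, were listed at 0 in all 12 libraries, and exon 3 ranged from 0 to 2.43 in depth-scaled coverage (mean coverage of the exon per 1000000 estimated read pairs). Exon 4, of 1404 bases, had 7.43, 8.43 and 7.01 in D2 siKctd10 libraries, against 11.6, 9.24 and 10.6 in D2 siControl libraries. In D0 libraries it had 5.65, 5.33 and 5.23 with siKctd10, against 11.4, 10.3 and 11 with siControl. The Tubb3 level thus rested nearly wholly on its last exon, whose coverage was at 72.6% of siControl at D2 and 49.5% at D0.

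Tubb2a, a class II beta-tubulin at chr13:34074280-34078008 on the minus strand of mm10, had 335.5, 403.3 and 414.4 TPM in D2 siKctd10 libraries, against 404.5, 423.1 and 389.0 TPM in D2 siControl libraries. In D0 siKctd10 libraries it had 326.5, 303.6 and 367.7 TPM, against 325.1, 319.1 and 343.9 TPM in D0 siControl libraries. Groups overlapped on both days, and the knockdown differences were -0.08 at D2 (SE 0.10, limma adjusted p = 0.69) and 0.01 at D0 (SE 0.10, limma adjusted p = 0.98). Tubb2a was 0.30 higher at D2 than at D0 in siControl cells (limma adjusted p = 0.035) and 0.21 higher in siKctd10 cells (limma adjusted p = 0.13). The difference in siControl cells did not pass in any of the 6 fits that left out 1 library (limma adjusted p 0.052 to 0.11), nor with median-ratio scaling or voom. That in siKctd10 cells passed without D2 siKctd10 replicate 1 (limma adjusted p = 0.03).

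Tubb2b, the other class II beta-tubulin, at chr13:34127008-34130354 on the minus strand of mm10, had 279.3, 320.2 and 262.5 TPM in D2 siKctd10 libraries, against 393.3, 367.2 and 345.9 TPM in D2 siControl libraries. In D0 libraries Tubb2b had 242.6, 225.5 and 241.3 TPM with siKctd10, against 270.5, 256.4 and 263.2 TPM with siControl. All siKctd10 values were below the siControl values of the same day. The difference passed at D2 (-0.36, SE 0.08, limma adjusted p = 0.037) and not at D0 (-0.16, SE 0.08, limma adjusted p = 0.40). The D2 call was lost in 5 of the 6 fits that left out 1 library, all except the one without D2 siKctd10 replicate 2, with limma adjusted p between 0.021 and 0.13 over the 6. It was also lost with quantile normalization (limma adjusted p = 0.067) and with only the groups compared (limma adjusted p = 0.15). Tubb2b rose at D2 by 0.48 in siControl cells (SE 0.08, limma adjusted p = 0.0012), which held in all 16 alternatives. In siKctd10 cells the rise was 0.28 (SE 0.08, limma adjusted p = 0.025), which was 0.14 and did not pass after median-ratio scaling, and did not pass with voom or with only the groups compared, nor without D0 siKctd10 replicate 2 or without D2 siKctd10 replicate 2.

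Tubb6, the class V beta-tubulin, known from myoblasts and regenerating muscle, had 175.4, 189.3 and 170.9 TPM in D2 siKctd10 libraries, against 239.4, 232.0 and 243.2 TPM in D2 siControl libraries. The D0 values were 209.1, 202.5 and 232.8 TPM with siKctd10, against 208.0, 13.2 and 231.9 TPM with siControl. The value of D0 siControl replicate 2 stands apart from all the others. In that library the last exon of the main Tubb6 transcript had a depth-scaled coverage of 0.00159, against 19.8 and 21.6 in replicates 1 and 3, while exon 3 had 17.5 there, against 23.7 and 21.8. No Tubb6 comparison passed (limma adjusted p 0.23 to 0.84 among the 4 pairs of groups), with an SE of 0.85 that this library widens for all of them. Without it the D0 knockdown difference was -0.03 (SE 0.09, limma adjusted p = 0.91) in place of 1.29. The differentiation difference in siControl cells was then 0.12 (limma adjusted p = 0.37) in place of 1.44. At D2 the siKctd10 libraries were all below the siControl libraries, at 75.0% of their mean (-0.42). A fit of the D2 groups by themselves, which leaves the odd library out, gave an SE of 0.07 and a limma adjusted p of 0.051.

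Stmn1, the widely expressed cytosolic stathmin, at chr4:134468320-134473843 on the plus strand of mm10, had 294.1, 258.7 and 215.7 TPM in D2 siKctd10 libraries, against 373.6, 354.6 and 341.9 TPM in D2 siControl libraries. Stmn1 at D0 had 411.2, 436.3 and 272.9 TPM with siKctd10, against 482.3, 489.7 and 435.9 TPM with siControl. The D2 groups did not overlap, and 1 D0 siKctd10 library reached just above the lowest D0 siControl library. Neither difference passed (-0.49, SE 0.17, limma adjusted p = 0.15 at D2 and -0.36, SE 0.17, limma adjusted p = 0.35 at D0). Of the 8 genes, Stmn1 was the one with a lower mean at D2 than at D0 in both siRNA groups. That difference was -0.52 in siKctd10 cells (SE 0.17, limma adjusted p = 0.036) and -0.39 in siControl cells (SE 0.17, limma adjusted p = 0.10). The call in siKctd10 cells was lost in 4 of the 6 fits that left out 1 library, those without D0 siKctd10 replicates 1 or 2 or D2 siKctd10 replicates 2 or 3 (limma adjusted p 0.0016 to 0.12 over the 6), and with only the groups compared (limma adjusted p = 0.13). That in siControl cells passed with median-ratio scaling (limma adjusted p = 0.041) and with only the groups compared (limma adjusted p = 0.0076).

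Stmn2, a stathmin of neuronal growth cones with a membrane anchor, had 234.8, 207.2 and 232.5 TPM in D2 siKctd10 libraries, against 284.5, 291.8 and 282.1 TPM in D2 siControl libraries. At D0 it had 112.1, 103.2 and 83.9 TPM with siKctd10, against 204.3, 160.5 and 204.3 TPM with siControl. Groups did not overlap on either day. Stmn2 fell at D0 to 52.6% of siControl (-0.92, SE 0.12, limma adjusted p = 0.0051). This was past the threshold in 16 of 17 alternatives, and the exception was the fit of only the groups compared (limma adjusted p = 0.10). At D2 the difference was -0.35 (SE 0.12, limma adjusted p = 0.16) and did not pass. Stmn2 rose with differentiation by 1.17 in siKctd10 cells (SE 0.12, limma adjusted p = 5.7e-05) and by 0.60 in siControl cells (SE 0.12, limma adjusted p = 0.0039), and both rises passed in all 17 alternatives. The difference between the rises, 0.57 (SE 0.18), did not pass (limma adjusted p = 0.24 for the interaction of day and siRNA).

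The Stmn2 level is a sum over 2 transcripts, and the 3-exon one was listed at 0.446 TPM in D2 siKctd10 replicate 2 and at 0.361 TPM in D0 siControl replicate 2, against 16.8 to 65.0 TPM in the other 10 libraries. The 5-exon transcript, at chr3:8509527-8561604 on the plus strand of mm10, carried most of the level. Its last exon, of 1339 bases, had a depth-scaled coverage of 20.3, 22.4 and 18.9 in D2 siKctd10 libraries, against 28.1, 25.8 and 26.5 in D2 siControl libraries. In D0 libraries that exon had 10.3, 9.79 and 7.72 with siKctd10, against 19.9, 19.9 and 18.7 with siControl. The last exon by itself thus stood at 76.5% of siControl at D2 and 47.4% at D0.

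Stmn4, a brain stathmin with a membrane anchor and the second gene by which the list was chosen, was the lowest of the 8 genes in every group. It had 5.48, 7.02 and 12.4 TPM in D2 siKctd10 libraries, against 20.7, 17.7 and 20.2 TPM in D2 siControl libraries. At D0 it had 1.37, 0.568 and 0.558 TPM with siKctd10, against 17.2, 20.8 and 15.0 TPM with siControl. The groups were apart on both days, and the 3 D0 siKctd10 libraries were close to 0. Stmn4 stood at 42.5% of siControl at D2 (-1.21, SE 0.27) and at 4.72% at D0 (-3.37, SE 0.27). The size at D0 depends on the scale at such low levels, with -4.35 for a pseudocount of 0.1 and -4.52 for voom on estimated read pairs. Leaving out 1 library at a time gave -1.51 to -0.98 at D2 and -3.57 to -3.25 at D0. Within siKctd10 cells the D2 mean was 8.3 ± 3.63 TPM and the D0 mean 0.834 ± 0.469 TPM (SD, n = 3 each), a log2 difference of 2.30. In siControl cells Stmn4 had 19.5 ± 1.65 TPM at D2 and 17.7 ± 2.9 TPM at D0 (SD, n = 3 each), a difference of 0.15 that did not pass (limma adjusted p = 0.72).

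Of 3 Stmn4 transcripts, which span the same interval chr14:66344296-66361680 on the plus strand of mm10, only the one of 1392 bases had values, and the other 2 were listed at 0 in every library. Its 7 exons include a single one over 500 bases. Exon 5, of 209 bases, had a depth-scaled coverage of 2.12, 1.88 and 5.25 in D2 siKctd10 libraries, against 6.82, 6.14 and 6.66 in D2 siControl libraries. In the 3 D0 siKctd10 libraries exon 5 was listed at 0, against 8.01, 7.62 and 5.73 in D0 siControl libraries. Exon 7, of 606 bases, had 0.251, 0.577 and 0.369 in D2 siKctd10 libraries, against 1.6, 1.12 and 1.12 in D2 siControl libraries. At D0 exon 7 had 0.264, 0.107 and 0.104 with siKctd10, against 0.755, 1.55 and 0.955 with siControl. Both exons were lower in siKctd10 libraries on both days without overlap. Exon 7 by itself stood at 31.1% of siControl at D2 and 14.6% at D0, against 42.5% and 4.72% for the gene level. The size of the D0 difference thus depends on exon 5 being listed at 0. Exon 5 exceeded the last exon in every library but the D0 siKctd10 ones, although both lie in the same transcript.

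**Figure D2:**
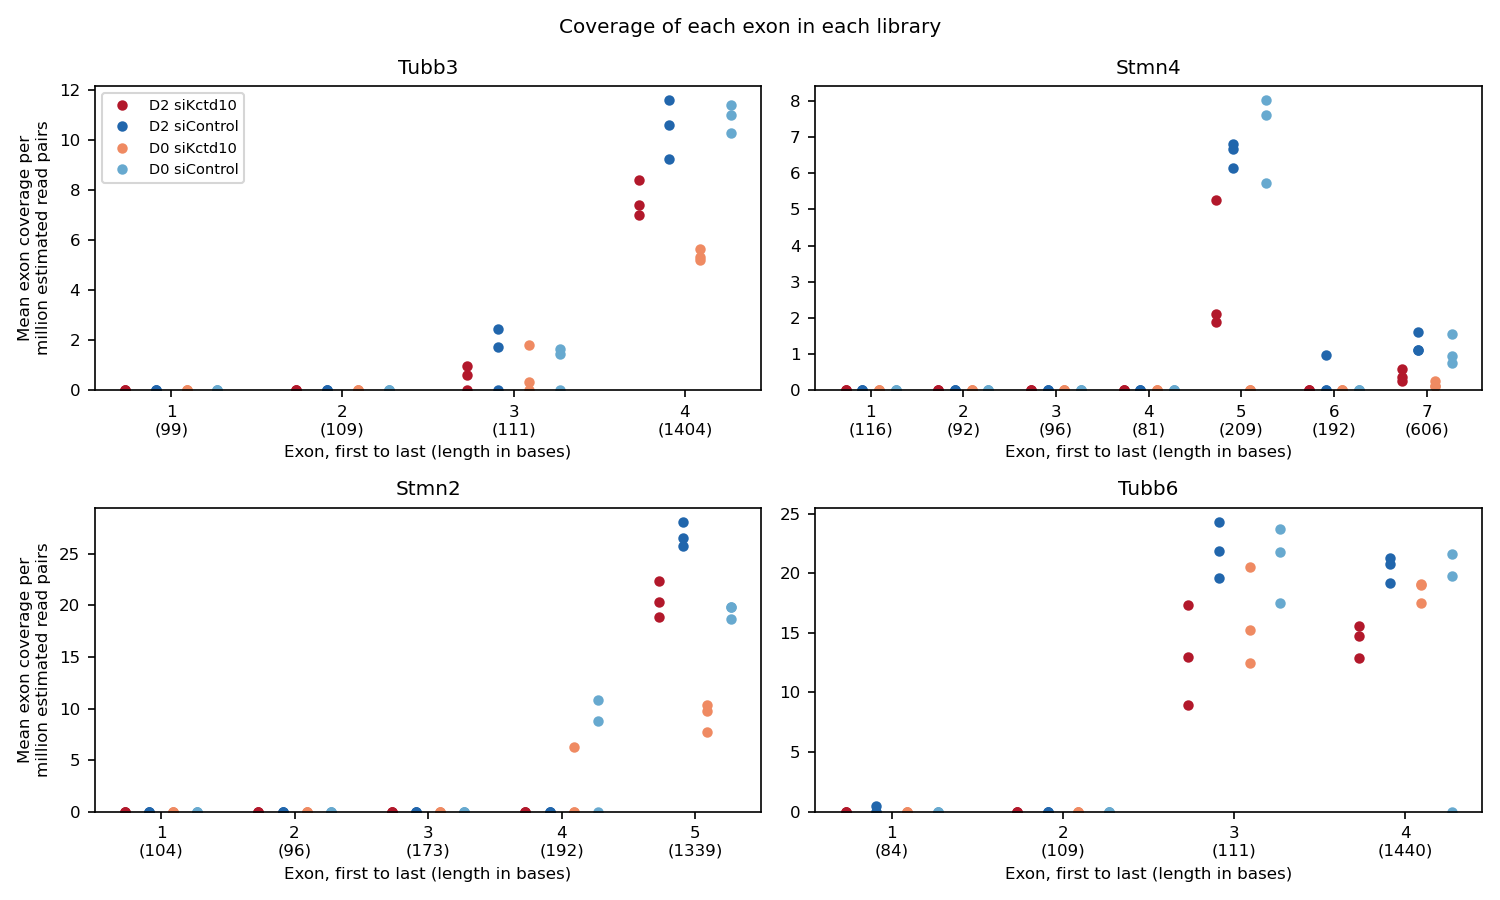
Mean coverage of each exon per 1000000 estimated read pairs (y axis, from 0) for Tubb3, Stmn4, Stmn2 and Tubb6, with exons in transcript order and their lengths in bases (x axis), each point a library coloured by group. Coverage sits on the last exon of Tubb3 and Stmn2 and on exons 5 and 7 of Stmn4, and 1 D0 siControl point of Tubb6 exon 4 is near 0.

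The knockdown comparisons can be read against all genes. Of the 13079 genes, 4.75% passed at D2 (2.83% higher and 1.92% lower in siKctd10) and 2.45% at D0 (1.48% higher and 0.963% lower). Leaving out any 1 library of the groups compared lowered these counts to between 315 and 417 genes at D2, in place of 621, and to between 118 and 223 genes at D0, in place of 320. Leaving Tubb3 and Stmn4 aside, 2 of the 6 other members were lower at D2 (Tuba1a and Tubb2b) and 2 of 6 at D0 (Tuba1a and Stmn2), and 0 were higher by limma (0 at an unadjusted p under 0.05, and 0 with voom). The median log2 fold change of these 6 was -0.36 at D2, against 0.08 over all genes, and -0.21 at D0, against 0.05 over all genes. The members were picked with earlier results of these libraries known. All 6 values at D2 and 4 of 6 at D0 were negative. With another scaling the balance of calls was different. The share of called genes that were higher in siKctd10 cells was 59.6% at D2 and 60.6% at D0 as fitted, against 39.4% and 47.3% with median-ratio scaling, 46.4% and 47.5% with quantile normalization, and 46.6% and 43.5% with voom. In the interaction of day and siRNA, 0.742% of all genes passed, and 0 of the 6 members passed by limma (1 at an unadjusted p under 0.05, 0 with voom). The interaction values of the 2 genes that defined the list, given with no test, were 2.16 for Stmn4 (3.04 with a pseudocount of 0.1) and 0.53 for Tubb3.

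**Figure D3:**
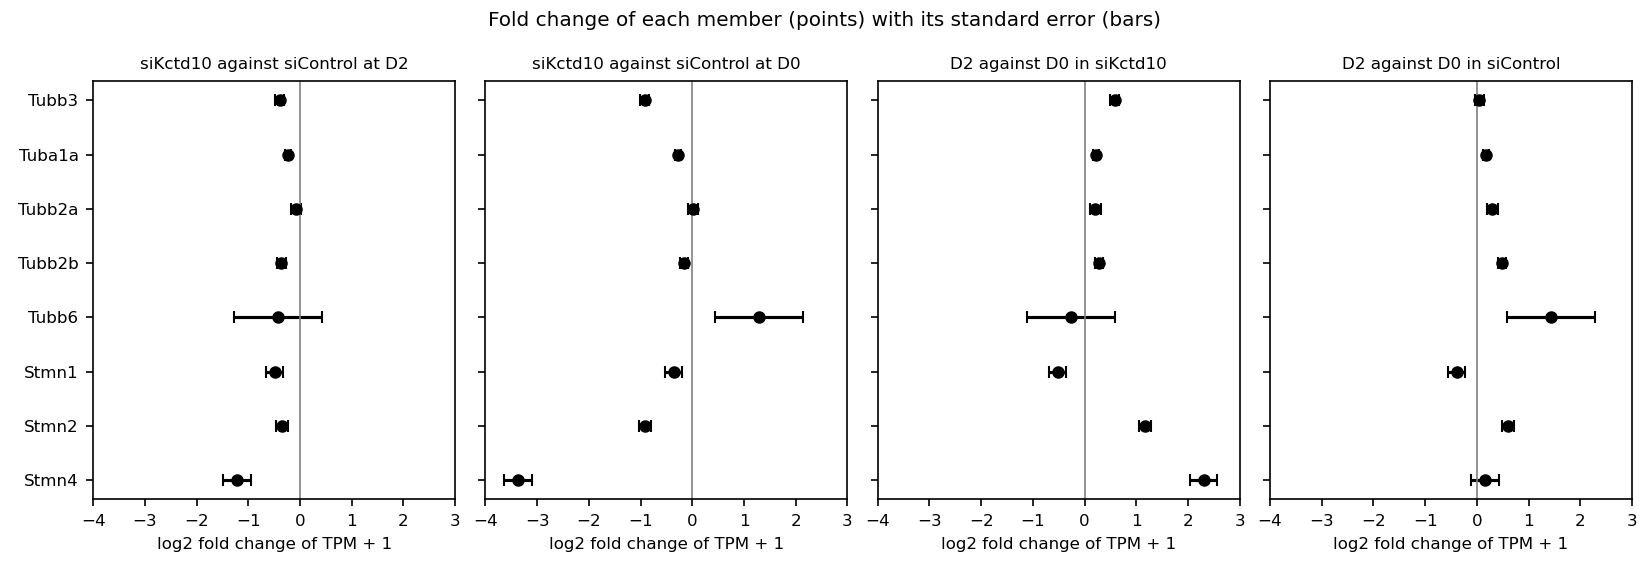
Log2 fold change of TPM + 1 (x axis) of each member (rows), as points with standard errors, for siKctd10 against siControl at D2 and at D0 and for D2 against D0 in siKctd10 and in siControl cells. Stmn4 lies furthest from 0 after knockdown, at -3.37 at D0, and the Tubb6 bars are wide because of 1 library.

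Some genes that mark neurons were lower along with Tubb3, Stmn2 and Stmn4. Of 18 neural marker genes 6 passed the filter on low values, and Snap25, Elavl4 and Gfap were at 0 in all 12 libraries. The 18 summed to 198.7 to 271.8 TPM in D2 siKctd10 libraries, against 365.6 to 405.1 TPM in D2 siControl libraries, and to 606.7 to 959.2 TPM in D0 siKctd10 libraries, against 1049.3 to 1075.5 TPM in D0 siControl libraries. Gap43, a protein of growth cones, fell to 40.6 ± 3.2 TPM in D2 siKctd10 cells, against 124.9 ± 12.9 TPM in D2 siControl cells (-1.60, limma adjusted p = 0.00065). It fell at D0 to 25.5 ± 4.73 TPM with siKctd10, against 64.3 ± 9.84 TPM with siControl (-1.30, limma adjusted p = 0.0026). Nefl, the light neurofilament subunit, fell to 134.6 ± 19.8 TPM in D2 siKctd10 cells, against 208.0 ± 8.05 TPM in D2 siControl cells (-0.63, limma adjusted p = 0.009). At D0 Nefl fell to 514.3 ± 44.3 TPM with siKctd10, against 896.6 ± 10.9 TPM with siControl (-0.80, limma adjusted p = 0.0043, SD, n = 3 each). The part of these genes in the results on the members was not tested. At D2 4 of the 12 muscle differentiation genes were lower with siKctd10 (Myog, Mymk, Actc1 and Actn2) and 0 were higher, where 1.92% of all genes were lower. At D0 0 were lower and 1 was higher, Acta1 (0.94, limma adjusted p = 0.017), where 1.48% of all genes were higher. Acta1 also passed in the interaction of day and siRNA (-1.53, limma adjusted p = 0.016). The 5 myoblast markers summed to 1326.7 to 1624.5 TPM in D2 siKctd10 libraries, against 1691.5 to 1770.6 TPM in D2 siControl libraries, without overlap, and to 527.9 to 670.2 TPM in D0 siKctd10 libraries, against 535.1 to 539.4 TPM in D0 siControl libraries. Of these 5, the myogenic factors Myod1 (-0.37, limma adjusted p = 0.0092) and Myf5 (-0.57, limma adjusted p = 0.005) were lower with siKctd10 at D2, and neither passed at D0. The part of the muscle and myoblast genes in the D2 differences of the members was not tested. Fewer cells of a type and less RNA per cell cannot be told apart in these bulk samples.

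Few other genes of the microtubule system passed after knockdown. Of 146 measured genes of 167 in 10 lists, 1 was higher and 3 were lower at D2, and 0 were higher and 2 were lower at D0 by limma. At an unadjusted p under 0.05, 10 were higher and 19 lower at D2, and 14 were higher and 15 lower at D0. Over all 13079 genes, 2512 passed that unadjusted threshold at D2 and 2072 at D0, both directions together. With voom 7 were called at D2 and 4 at D0, both directions together. The medians were 0.05 at D2, against 0.08 over all genes, and 0.04 at D0, against 0.05. Leaving out any 1 library of the groups compared left 1 or 2 of these genes called at D2 and 0 or 1 at D0. Over all genes 4.75% passed at D2 and 2.45% at D0, so 4 and 2 of 146 are no excess. Vash1, an enzyme that removes the last tyrosine of alpha-tubulin, was the one that fell on both days. It had 8.72, 10.3 and 9.68 TPM in D2 siKctd10 libraries, against 17, 18 and 15.9 TPM in D2 siControl libraries (-0.77, SE 0.11, limma adjusted p = 0.0049). At D0 it had 5.31, 4.6 and 4.82 TPM with siKctd10, against 7.74, 8.35 and 8.03 TPM with siControl (-0.61, SE 0.11, limma adjusted p = 0.021). The other gene lower at D0 was the prefoldin subunit Pfdn4, with 7.26 ± 2.71 TPM with siKctd10 and 23.9 ± 8.41 TPM with siControl (SD, n = 3 each, -1.59, limma adjusted p = 0.022).

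At D2 the alpha-tubulin Tuba4a fell to 57.1 ± 2.82 TPM with siKctd10, against 81.9 ± 7.35 TPM with siControl (-0.51, limma adjusted p = 0.027). The kinesin-1 heavy chain Kif5c fell to 30.6 ± 1.19 TPM with siKctd10, against 41.1 ± 2.55 TPM with siControl (-0.41, limma adjusted p = 0.0495), and the polyglutamylase Ttll11 rose to 7.37 ± 1.01 TPM with siKctd10, against 3.9 ± 0.36 TPM with siControl (0.77, limma adjusted p = 0.037), all SD, n = 3 each. Tubulins outside the 8 members had a median of -0.14 at D2 and -0.19 at D0 over 12 measured of 15 listed. Of the 12, 9 had negative values at D2 and 11 at D0, so lower values were not particular to the members. At an unadjusted p under 0.05, 0 were higher and 5 lower at D2, and 1 was higher and 5 lower at D0. At that threshold 2512 of all 13079 genes passed at D2 and 2072 at D0, both directions together. Tuba1b was at 67.4% of siControl at D2 (-0.58, limma adjusted p = 0.097) and at 68.2% at D0 (-0.57, limma adjusted p = 0.14). This Tuba1b sum was mostly a single-exon transcript of 391 bases. The 4-exon Tuba1b transcript had 943.8, 917.2 and 824.9 TPM in D2 siKctd10 libraries, against 1180.1, 1132.4 and 1115.7 TPM in D2 siControl libraries. At D0 it had 1619.3, 1808.3 and 1448.0 TPM with siKctd10, against 2093.1, 2027.5 and 2085.8 TPM with siControl. Tubb5, the most abundant beta-tubulin, was at 898.2 ± 33.3 TPM with siKctd10 and 1003.4 ± 56.3 TPM with siControl at D2 (-0.16, limma adjusted p = 0.17). At D0 it was at 1605.4 ± 71.8 TPM with siKctd10 and 1876.2 ± 10.4 TPM with siControl (-0.23, limma adjusted p = 0.085, SD, n = 3 each). Stmn3, the remaining stathmin, was listed at 0.101 TPM in D2 siKctd10 replicate 1 and at 0 in the other libraries.

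Between the days several members were higher at D2 and most other tubulins lower. Of all genes 35.5% passed between D2 and D0 in siControl cells (21.4% higher and 14% lower at D2) and 36.4% in siKctd10 cells (23.1% higher and 13.3% lower). Higher genes were 60.4% of the calls in siControl cells and 63.5% in siKctd10 cells, against 51.9% and 51.7% with median-ratio scaling, 48.9% and 50.4% with quantile normalization, and 51.5% and 55% with voom. Median-ratio scaling moved the median of all genes in siKctd10 cells to 0.002, from 0.117. In siControl cells 4 of the 8 members rose (Tuba1a, Tubb2a, Tubb2b and Stmn2) and 0 fell by limma (1 at an unadjusted p under 0.05, 0 with voom). With voom and with median-ratio scaling, the rises of Tubb2b and Stmn2 passed and those of Tuba1a and Tubb2a did not. The fall of Stmn1 passed with median-ratio scaling (limma adjusted p = 0.041). The median of the 8 was 0.24, against 0.09 over all genes. Of the other tubulins 8 of 12 measured fell in siControl cells and 8 of 12 in siKctd10 cells, and 0 rose in either by limma (0 at an unadjusted p under 0.05). The fallen genes were in both cases Tuba1b, Tuba1c, Tuba4a, Tubb4a, Tubb4b, Tubb5, Tube1 and Tubg1. Their list had a median of -0.62 in siControl cells and -0.85 in siKctd10 cells, and 7 or 8 of the list were called under every alternative (8 with voom).

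Tubb5 fell to 1003.4 ± 56.3 TPM in D2 siControl cells, against 1876.2 ± 10.4 TPM in D0 siControl cells (-0.90, SE 0.06, limma adjusted p = 1.9e-06). Tubb4b, another widely expressed beta-tubulin, fell to 375.1 ± 5.55 TPM at D2, against 1036.6 ± 67.5 TPM at D0 (-1.46, SE 0.07, limma adjusted p = 2.6e-07). The alpha-tubulin Tuba1c fell to 593.5 ± 35.4 TPM at D2, against 903.7 ± 11.8 TPM at D0 (-0.61, limma adjusted p = 0.00023), all SD, n = 3 each, in siControl cells. The level of Tuba1b cannot be set beside these, since a short single-exon transcript of 391 bases held 6161.2 to 21612.3 TPM of it in the 12 libraries, against 824.9 to 2093.1 TPM for its 4-exon transcript. That 4-exon transcript had 1180.1, 1132.4 and 1115.7 TPM in D2 siControl libraries, against 2093.1, 2027.5 and 2085.8 TPM in D0 siControl libraries.

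The make-up of the beta-tubulin transcripts differed between the days. The beta-tubulin genes summed to 2511.6 ± 81.1 TPM in D2 siControl cells and 3774.2 ± 183 TPM in D0 siControl cells (SD, n = 3 each). Tubb2a made up 16.2 ± 0.894% of the sum at D2 and 8.73 ± 0.188% at D0, and Tubb2b 14.7 ± 0.575% at D2 and 6.99 ± 0.266% at D0. Tubb3 held 4.24 ± 0.29% at D2 and 2.73 ± 0.0228% at D0 in siControl cells. Tubb4b held 14.9 ± 0.617% at D2 and 27.5 ± 0.938% at D0, and Tubb5 39.9 ± 1.01% at D2 and 49.8 ± 2.7% at D0 (SD, n = 3 each). The libraries of the 2 days did not overlap for any of these 5 shares. The exact two-sided permutation test gave p = 0.1 for each, the smallest that 3 against 3 libraries can give, so it cannot reach 0.05. The Tubb6 share was 9.49 ± 0.338% at D2 and 3.91 ± 3.07% at D0, where D0 siControl replicate 2 had 0.368% and the other libraries 5.47 and 5.89%.

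In siKctd10 cells the same shares were 17.2 ± 1.68% at D2 and 9.87 ± 1.18% at D0 for Tubb2a, and 12.9 ± 0.782% at D2 and 7.01 ± 0.425% at D0 for Tubb2b. Tubb3 held 3.64 ± 0.184% at D2 and 1.6 ± 0.0725% at D0 there (SD, n = 3 each), a description only. Tuba1a made up 13.4 ± 0.268% of the summed alpha-tubulin TPM in D2 siControl cells and 7.17 ± 0.651% in D0 siControl cells. Leaving out transcripts under 500 bases, which removes the short Tuba1b transcript and was chosen after seeing the data, these shares were 52.1 ± 0.267% at D2 and 36.1 ± 0.27% at D0.

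**Figure D4:**
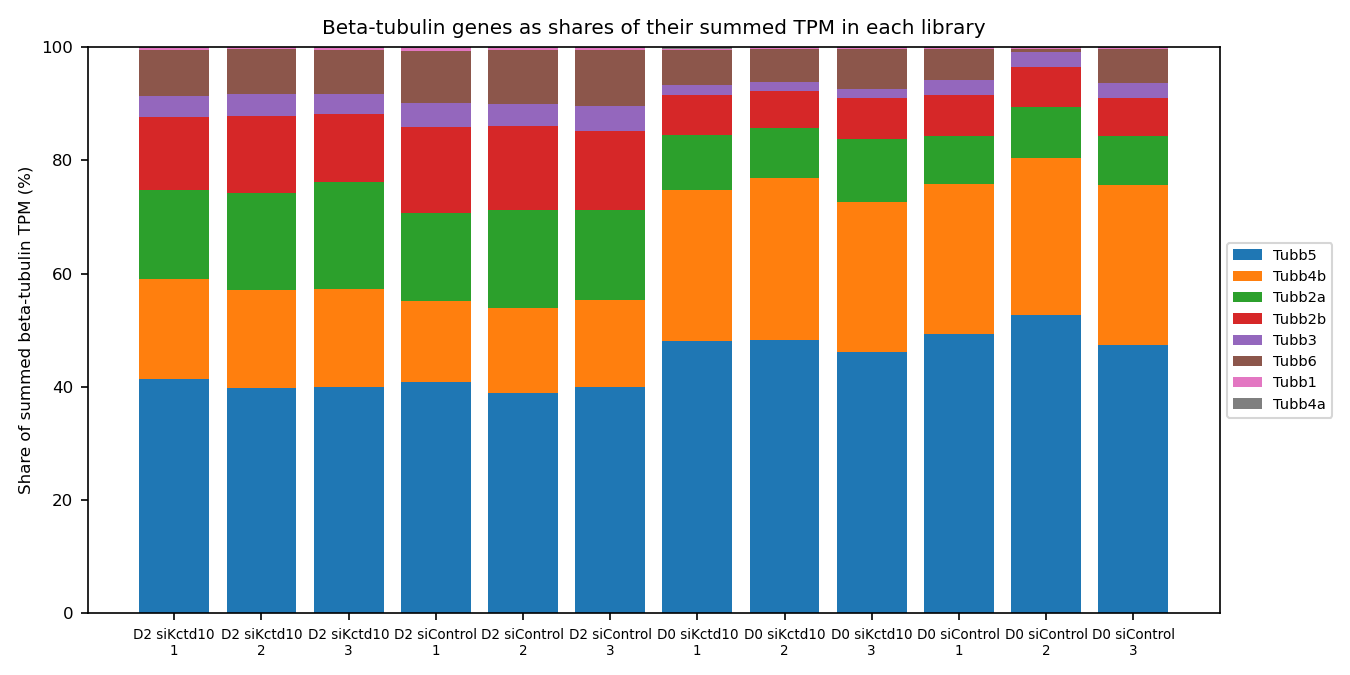
Share of each beta-tubulin gene in the summed beta-tubulin TPM (y axis, in percent, from 0 to 100) in each of the 12 libraries (bars). Tubb4b takes 14.3 to 17.7% of the sum in D2 libraries and 26.4 to 28.6% in D0 libraries, and Tubb2a 15.5 to 19% in D2 and 8.54 to 11.1% in D0 libraries.

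The wider microtubule system changed with differentiation in both directions. In siControl cells 27 of the 146 listed genes rose and 45 fell (median -0.08, against 0.09 over all genes), and in siKctd10 cells 22 rose and 40 fell (median -0.12, against 0.12). Over all genes 21.4% rose and 14% fell in siControl cells, and 23.1% rose and 13.3% fell in siKctd10 cells. Of the transport motors 11 of 20 rose and 0 fell in siControl cells by limma (0 at an unadjusted p under 0.05, and 9 called in all with voom), with a median of 0.50, where 21.4% of all genes rose. They were Bicd2, Dync1h1, Dync1i1, Dync1i2, Kif1b, Kif3b, Kif3c, Kif5c, Kifap3, Klc1 and Klc4. Against the 14% of all genes that fell in siControl cells, 16 of 20 mitotic spindle and proliferation genes fell, with a median of -1.26. Of 22 tubulin folding genes 8 fell, among them the chaperonin subunits Cct2, Cct5, Cct6a, Cct7, Cct8 and Tcp1, and 1 rose.

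The genes with the largest changes that the naming rule gave for siControl cells follow. Dync1i1, a dynein intermediate chain, had 28.8, 46.8 and 29.7 TPM at D2, against 1.36, 1.81 and 1.14 TPM at D0 (3.86, limma adjusted p = 0.0097). Akap6, a scaffold for microtubule nucleation at the nuclear envelope of muscle cells, rose to 65.7 ± 12.7 TPM at D2, against 9.29 ± 1.39 TPM at D0 (2.69, limma adjusted p = 2.4e-06). Map2, a microtubule-associated protein of dendrites, rose to 30.9 ± 6.78 TPM at D2, against 7.11 ± 1.46 TPM at D0 (1.97, limma adjusted p = 6.7e-05), all SD, n = 3 each. Among enzymes, 2 rose with a wide spread, namely the katanin-like Katnal1 (29.1, 13.1 and 28.4 TPM at D2, against 3.47, 0.381 and 6.36 TPM at D0) and the tubulin acetyltransferase Atat1 (36.8, 8.43 and 11.6 TPM at D2, against 4.04, 4.06 and 3.19 TPM at D0). The log2 fold change was 2.70 for Katnal1 (limma adjusted p = 0.0091) and 1.80 for Atat1 (limma adjusted p = 0.028).

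Those that fell included the mitotic kinase Plk1 (-2.46), with 49.0, 10.4 and 11.9 TPM at D2, against 101.7, 110.3 and 104.9 TPM at D0 (limma adjusted p = 0.0061). The mitotic kinesins Kif15, Kif4 and Kif23 fell by 1.90, 1.82 and 1.59 on the log2 scale, and Pfdn4 fell by 2.10. For genes with several transcripts these sums depend on how the estimate divided reads between transcripts.

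Genes of closest pattern were found for Tubb3, Stmn4 and Stmn1 by the root mean square difference of centred log2(TPM + 1) over the 12 libraries. The closest to Tubb3 were Tmem167 (0.11), Kdelc2 (0.11) and Stc1 (0.16). Tmem167 averaged 44.1 ± 2.32 TPM in D2 siKctd10 cells, 53.2 ± 1.04 in D2 siControl cells, 29.6 ± 2.13 in D0 siKctd10 cells and 51.1 ± 1.11 in D0 siControl cells (SD, n = 3 each). For Stmn4 the closest genes were further off, namely Mboat1 (0.69), Hdc (0.72) and Capza1 (0.74). Capza1, a subunit of the actin capping protein, averaged 75.8 ± 3.05 TPM in D2 siKctd10 cells, 203.9 ± 39.4 in D2 siControl cells, 48.5 ± 10 in D0 siKctd10 cells and 189.3 ± 10.8 in D0 siControl cells. The closest to Stmn1 were C1d (0.09), Tmem14c (0.10) and Rps3a1 (0.11). These are likenesses of pattern in libraries that the members were chosen on.

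By level in TPM the order in D2 siControl cells was Tuba1a, Tubb2a, Tubb2b, Stmn1, Stmn2, Tubb6, Tubb3 and Stmn4, and the libraries of Tubb2a and Tubb2b, and of Tubb2b and Stmn1, overlapped. In D0 siControl cells Stmn1 stood second, ahead of Tubb2a, Tubb2b and Stmn2, and the wide Tubb6 values overlapped those of Stmn2 and Tubb3. In D2 siKctd10 cells the order was that of D2 siControl cells, with overlaps between Tubb2b and Stmn1 and between Stmn1 and Stmn2. In D0 siKctd10 cells Tubb6 stood ahead of Stmn2, and Stmn1 and Tubb2a, and Tubb2b and Tubb6, overlapped.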

How the data were processed

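The authors estimated transcript levels with StringTie, whose version is 1.3.3b per the file headers and 1.1.3 per the submitters' processing notes, which also name HISAT, SAMtools, DESeq2 and mm10. The deposited files give coverage, FPKM, TPM and other attributes for 63759 known transcripts, with no read counts and no gene symbols. The headers name alignments by codes other than those of the labels, so the link of file to sample is GEO's. TPM was used here. GENCODE vM21 gave gene symbols, through identical introns (42608 transcripts) or an exon overlap of 50% or more (13473), for 88.0% of transcripts, and TPM was summed per gene. Read pairs were estimated from coverage and length with an inferred 202 bases a pair, so intervals on counts are not given.

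Genes reaching 1 TPM in 3 or more libraries were fitted with limma 3.58.1 in R 4.3.3 on log2(TPM + 1), with a trend, robust variances, 4 group means and 8 residual degrees of freedom. P-values were adjusted by Benjamini-Hochberg, with a threshold of 0.05. The fit was tested on simulated data. Fold changes on this scale understate those of low genes. The members and lists were chosen with earlier results of these data known. Besides the members and a few fixed relatives, the text names up to 10 microtubule genes per comparison with the largest changes past 0.05, no overlap and a mean of at least 5 TPM. Alternatives changed the pseudocount, filter, scaling, tool, transcripts used, libraries and block.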

Additional observations from a re-analysis of the deposited data

How the results depend on the processing

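Direction held in every alternative for every call on a member. The number of genes called ranged widely with the fit. With only the groups compared it was 260 in place of 621 at D2 and 72 in place of 320 at D0. The interaction gave 62 genes with a pseudocount of 0.1 and 42 with the replicate block, in place of 97. The count over all microtubule lists at D2, 4, became 2 with a pseudocount of 0.1, 10 with median-ratio scaling, 7 with voom and 1 with only the groups compared. At D0, where it was 2, it became 4 with median-ratio scaling, 4 with voom and 1 with only the groups compared. Leaving out 1 library at a time gave 315 to 417 genes at D2 and 118 to 223 at D0. The change was over 1.5 times for all but D2 siControl replicate 3 at D2 and all but D0 siKctd10 replicate 3 at D0. For the interaction these fits gave 52 to 82 genes, fewest without D0 siControl replicate 1. There the change was over 1.5 times in some fits and smaller in others. Of the microtubule lists, 1 to 2 genes were called in these fits at D2 and 0 to 1 at D0. Stmn4 moved to -4.35 (pseudocount of 0.1) and -4.52 (voom) at D0, and its interaction to 3.04 and 3.13. Without transcripts under 500 bases Tuba1a made up 53.8 and 52.1% of alpha-tubulin at D2 and 36.7 and 36.1% at D0 (siKctd10 before siControl). Tubb2a and Tubb2b summed made up 30.1 and 30.8% of beta-tubulin at D2 and 16.9 and 15.7% at D0. Correlations of deviations between same-numbered libraries were -0.02 to 0.20 and did not pass 0.1 in every pair. Differently numbered libraries were not compared, so these values cannot decide whether the numbers pair the samples. The main fit took them as unpaired. The replicate block gave 548 genes at D2, 319 at D0, 4629 and 4708 between the days in siControl and siKctd10 cells. It moved Tubb2b at D2 to an adjusted p of 0.057 and Stmn1 between the days in siControl cells to 0.034. The cause of these changes was not tested. Depth limits Stmn4, whose D0 siKctd10 values rest on last-exon coverage near 0.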
